A study of Rattus norvegicus with 20 samples.

Results

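De novo fatty acid synthesis was followed through 10 genes in the RNA of the fat layer of rat milk: Slc25a1, Acly, Acss2, Me1, Acaca, Fasn, Olah, Scd, Srebf1 and Thrsp. They were chosen by symbol, and all 10 were found among the 16748 genes of the expression table. Lactating Sprague-Dawley dams, all Wild Type, received lipopolysaccharide (LPS, a bacterial cell wall component that provokes an immune response) or saline free of pyrogens, both on postnatal day 10. The 4 groups of 5 libraries each were P11 LPS and P11 saline, milked 24 h after the injection, and P10 LPS and P10 saline, milked 2 h after it. Every dam was anaesthetised lightly with isoflurane and given oxytocin before milking. The labels name 7 LPS dams and 7 saline dams, 3 of each sampled on both days, and the value columns do not tie a library to a dam. Postnatal day, time since the injection and, for those dams, a second milking cannot be told apart in the comparison of days.

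Fatty acid synthesis in the cytosol begins with citrate, which leaves the mitochondrion through the carrier Slc25a1 and is cleaved to acetyl-CoA by Acly, while Acss2 makes acetyl-CoA from acetate. Acaca carboxylates acetyl-CoA to malonyl-CoA, and Fasn builds the chain with reducing power that Me1 helps to supply. In the lactating rodent mammary gland the chain is released early by the thioesterase Olah, which gives milk fat its medium-chain acids. Scd puts a double bond into long saturated chains, Srebf1 encodes the transcription factor SREBP-1, and Thrsp encodes Spot 14, a lipogenic protein abundant in the lactating gland.

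Values are the deposited expression values, which are on a log2 scale normalised between libraries by the authors. Estimated reads in genes, in units of 1e6, were 22.2 to 47.7 per P11 library and 37.7 to 92.8 per P10 library. The lowest member value anywhere, 8.25 for Scd, stood for 223 normalised counts, well above the table's lowest value of 5.46. The material carried the milk epithelial transcripts its label implies. The 8 markers Csn1s1, Csn2, Csn3, Lalba, Wap, Btn1a1, Xdh and Muc1 took 18.5 to 28.9% of normalised counts in P11 LPS libraries, 17.3 to 54.0% in P11 saline, 53.2 to 63.4% in P10 LPS and 48.5 to 63.8% in P10 saline libraries, and none was at 0 in any group. In such bulk RNA, fewer cells of a type and less RNA per cell cannot be told apart.

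One library stood apart. P11 saline library 2 lay above the 9 other P11 libraries for all 10 members and inside the range of the P10 libraries for 8 of them. For the other two it lay at the edge of that range, with Me1 at 16.18, just above the P10 values, and Olah at 14.60, just below them. Across all genes it correlated at r = 0.976 to 0.986 with the P10 libraries and at 0.874 to 0.932 with the other P11 libraries. Its epithelial marker share was the highest of the P11 saline libraries, 54.0%, against 17.3 to 27.5% in the 4 others. Its neutrophil marker share was the lowest, 0.000307%, against 0.0315 to 0.122%. A column name is all that ties it to P11 saline. Whether that label is right was not tested, and every P11 saline value that includes it depends on the label. On the deposited scale, member differences and most list counts for saline dams are therefore given with all libraries and without it. Saline values scaled to each library's own total include it unless stated otherwise. The keratinocyte and red blood cell counts include it too.

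All 10 genes fell at P11 in both treatments on the deposited scale, and the synthase Fasn and the carboxylase Acaca had the largest differences. When counts were instead scaled to each library's own total (CPM), 8 of 10 were called lower and Slc25a1 and Me1 were not. With limma, adjusted over 14022 genes, 10 of 10 members were lower at P11 in LPS dams, where 52.9% of all genes were called in either direction and 3081 of the 14022 were lower. Saline dams gave 10 of 10 again, where 21.2% of all genes were called lower, or 24.8% without P11 saline library 2. The median member difference, P11 minus P10, was -3.13 on the log2 scale in LPS dams, beside a median of 0.10 over all genes. The saline median was -2.67 beside 0.05, and -3.31 beside 0.07 without library 2. Every P11 library lay below every P10 library for all 10 members in LPS dams, which held for 18.3% of all genes. In saline dams this held for Olah alone, with 5.23% of all genes, and for all 10 members without library 2, with 20.2% of all genes.

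**Figure D1:**
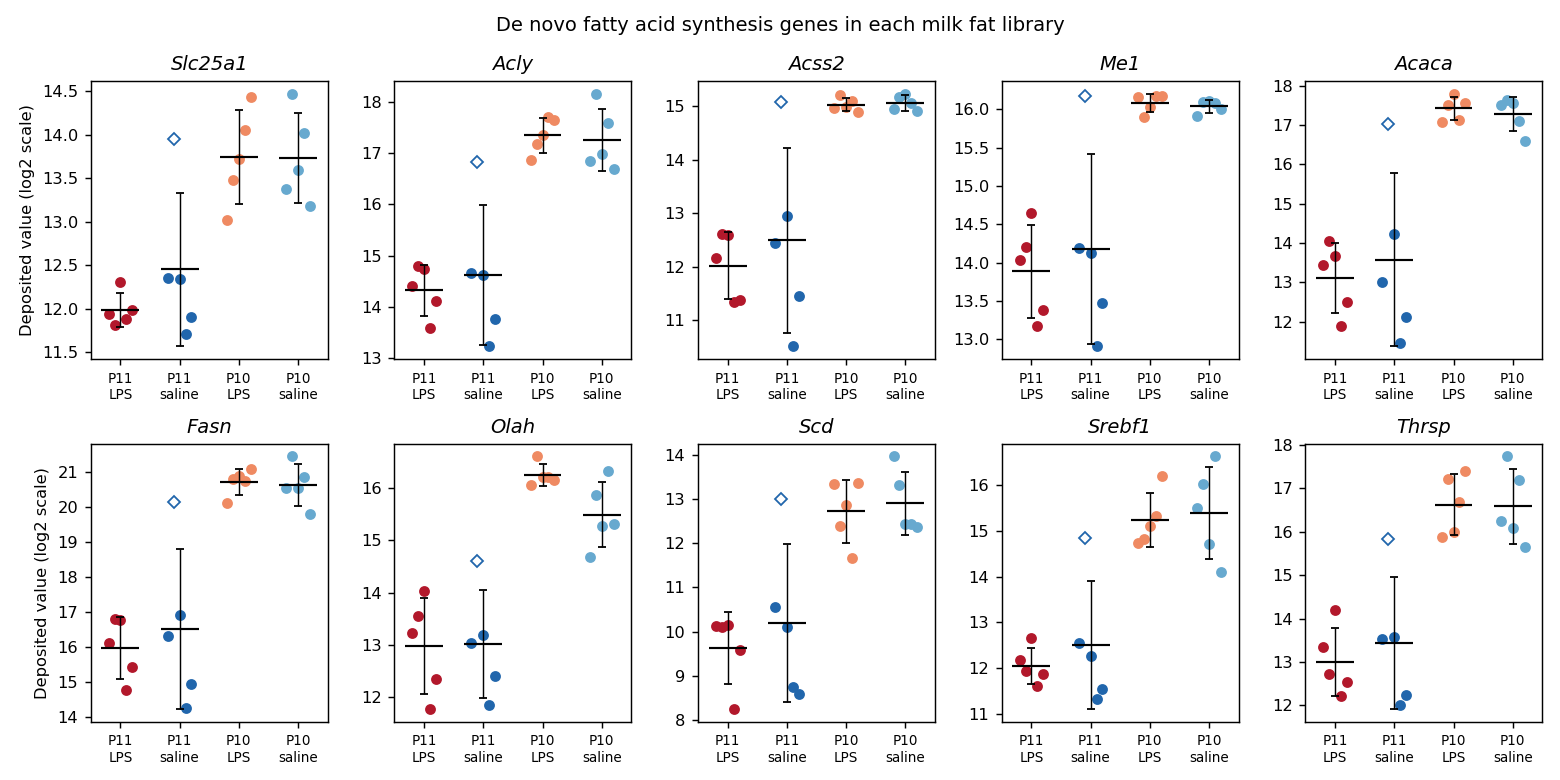
Deposited log2-scale value (vertical axis, each panel with its own range) of the 10 members in each library, by group; bars are group means with SD (n = 5), and the open diamond is P11 saline library 2. In each panel the filled P11 points lie below all P10 points, while the diamond lies at or near the P10 level.

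Fasn encodes the multi-domain enzyme that assembles palmitate. Its values in libraries 1 to 5 were 16.10, 16.79, 16.78, 14.76 and 15.42 in P11 LPS, against 20.11, 20.81, 20.89, 20.74 and 21.10 in P10 LPS libraries. In saline dams they were 16.30, 20.14, 16.91, 14.25 and 14.94 at P11, against 20.55, 21.46, 20.56, 20.88 and 19.80 at P10. The 9 P11 libraries other than saline library 2 all lay below 17, and the groups did not overlap once that library was set aside. The difference was -4.76 ± 0.80 (SE, n = 5 per group; limma adjusted p = 9.3e-05) in LPS dams, which left 3.70% of the P10 level on the deposited scale. As a share of each library's normalised counts the fall was smaller. The mean share of Fasn was 0.2786% in P11 LPS and 2.235% in P10 LPS libraries. In saline dams the difference was -4.14 ± 0.80 (limma adjusted p = 5.0e-04), and -5.05 ± 0.53 without library 2 (n = 4 and 5; limma adjusted p = 1.2e-07). Among 14022 genes ordered from the largest fall on the deposited scale, Fasn was number 1 in LPS dams and number 3 in saline dams. Without library 2 it was number 2 in saline dams, and as CPM with all libraries number 2 and number 4. A fall of this size is open only to genes that lie well above the lowest value of 5.46 at P10.

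Acaca encodes acetyl-CoA carboxylase 1, the committed step. P11 LPS libraries held 13.43, 14.04, 13.67, 11.90 and 12.49, against 17.09, 17.52, 17.80, 17.14 and 17.57 in P10 LPS libraries. P11 saline libraries held 13.01, 17.04, 14.24, 11.46 and 12.11, against 17.50, 17.64, 17.56, 17.11 and 16.60 in P10 saline libraries. The P10 libraries of both treatments thus sat in a band just over 1 unit wide, and P11 saline library 2 fell inside it. The difference was -4.32 ± 0.71 in LPS dams (limma adjusted p = 7.5e-05). In saline dams it was -3.71 ± 0.71 (limma adjusted p = 4.6e-04), and -4.57 ± 0.46 without library 2 (limma adjusted p = 6.7e-08).

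The citrate carrier Slc25a1 and the malic enzyme Me1 had the smallest differences, and neither was called on the CPM scale with all libraries, where Slc25a1 was at -0.12 in LPS dams and -0.16 in saline dams and Me1 at -0.55 and -0.75. Slc25a1 had 11.94, 11.81, 12.31, 11.88 and 11.99 in P11 LPS, against 13.02, 13.48, 13.72, 14.05 and 14.43 in P10 LPS libraries. Its P11 saline values were 12.35, 13.95, 12.34, 11.71 and 11.90, against 13.38, 14.47, 13.59, 14.02 and 13.18 at P10. The P11 LPS libraries were close to each other (SD 0.19), while the P10 libraries were spread (SD 0.54 in LPS, 0.52 in saline). The difference was -1.75 ± 0.34 in LPS dams (limma adjusted p = 0.000345) and -1.28 ± 0.34 in saline dams (limma adjusted p = 0.00509), or -1.65 ± 0.26 without library 2 (limma adjusted p = 1.7e-05).

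Me1, a cytosolic source of NADPH, showed the opposite pattern of spread. Its values were 14.04, 14.20, 14.65, 13.17 and 13.38 in P11 LPS, against 16.16, 15.90, 16.03, 16.17 and 16.17 in P10 LPS libraries. In saline dams they were 14.19, 16.18, 14.13, 12.91 and 13.47 at P11, against 15.91, 16.10, 16.11, 16.09 and 16.01 at P10. All 10 P10 libraries therefore lay within 0.3 of each other, and the P11 libraries other than saline library 2 spread over more than 1.5 units. The difference was -2.20 ± 0.41 in LPS dams (limma adjusted p = 2.2e-04) and -1.87 ± 0.41 in saline dams (limma adjusted p = 0.00122), or -2.37 ± 0.26 without library 2 (limma adjusted p = 2.5e-07).

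The makers of acetyl-CoA fell by about 3 units in LPS dams. ATP citrate lyase, Acly, was at 14.41, 14.79, 14.74, 13.58 and 14.11 in P11 LPS, against 16.87, 17.17, 17.35, 17.70 and 17.65 in P10 LPS libraries, a difference of -3.02 ± 0.48 (limma adjusted p = 6.1e-05). Saline libraries held 14.66, 16.83, 14.63, 13.23 and 13.76 at P11, against 16.85, 18.16, 16.99, 17.58 and 16.69 at P10, a difference of -2.63 ± 0.48 (limma adjusted p = 0.000345), or -3.19 ± 0.34 without library 2. The P11 values again lay well under the P10 values apart from saline library 2. Acss2, the cytosolic acetyl-CoA synthetase, ranged over 11.33 to 12.61 in P11 LPS, 10.51 to 15.08 in P11 saline, 14.89 to 15.21 in P10 LPS and 14.90 to 15.23 in P10 saline libraries. Its difference was -3.01 ± 0.54 in LPS dams and -2.57 ± 0.54 in saline dams (limma adjusted p = 1.5e-04 and 8.4e-04), or -3.22 ± 0.36 in saline dams without library 2. Like Me1 it was even at P10, with an SD of 0.12 in LPS and 0.14 in saline libraries.

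The genes that shape the product fell too. Olah, which ends the chain early, was at 13.23, 13.56, 14.03, 11.77 and 12.34 in P11 LPS, against 16.07, 16.61, 16.22, 16.22 and 16.16 in P10 LPS libraries, a difference of -3.27 ± 0.45 (limma adjusted p = 2.0e-05). The saline values were 13.03, 14.60, 13.19, 11.84 and 12.41 at P11, against 14.68, 15.87, 15.28, 16.33 and 15.31 at P10, a difference of -2.48 ± 0.45 (limma adjusted p = 3.3e-04), or -2.88 ± 0.39 without library 2. No P11 library reached a P10 library of the same treatment. Scd, the stearoyl-CoA desaturase, ranged over 8.25 to 10.14 in P11 LPS, 8.58 to 12.99 in P11 saline, 11.66 to 13.35 in P10 LPS and 12.36 to 13.96 in P10 saline libraries. Its difference was -3.08 ± 0.64 in LPS dams and -2.71 ± 0.64 in saline dams (limma adjusted p = 0.000535 and 0.002), or -3.41 ± 0.48 in saline dams without library 2. Reads that Scd shares with its close paralogs could have been split by the counting, so its level may be less certain than the others. This was not tested.

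The regulators fell with the enzymes. Srebf1 was at 12.17, 11.93, 12.66, 11.62 and 11.87 in P11 LPS, against 14.73, 14.82, 15.11, 15.33 and 16.19 in P10 LPS libraries, a difference of -3.19 ± 0.54 (limma adjusted p = 0.000105). Its saline values were 12.55, 14.85, 12.27, 11.33 and 11.54 at P11, against 15.50, 16.02, 14.71, 16.63 and 14.10 at P10, a difference of -2.88 ± 0.54 (limma adjusted p = 4.2e-04), or -3.47 ± 0.41 without library 2. With that library aside the highest P11 saline value was 1.5 units below the lowest P10 saline value. Thrsp was at 13.35, 12.72, 14.20, 12.22 and 12.54 in P11 LPS, against 15.87, 17.21, 15.99, 16.68 and 17.40 in P10 LPS libraries, a difference of -3.62 ± 0.59 (limma adjusted p = 7.5e-05). In saline dams it was at 13.54, 15.84, 13.57, 12.01 and 12.23 at P11, against 16.25, 17.74, 16.10, 17.20 and 15.64 at P10, a difference of -3.15 ± 0.59 (limma adjusted p = 0.000425), or -3.75 ± 0.48 without library 2.

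**Figure D2:**
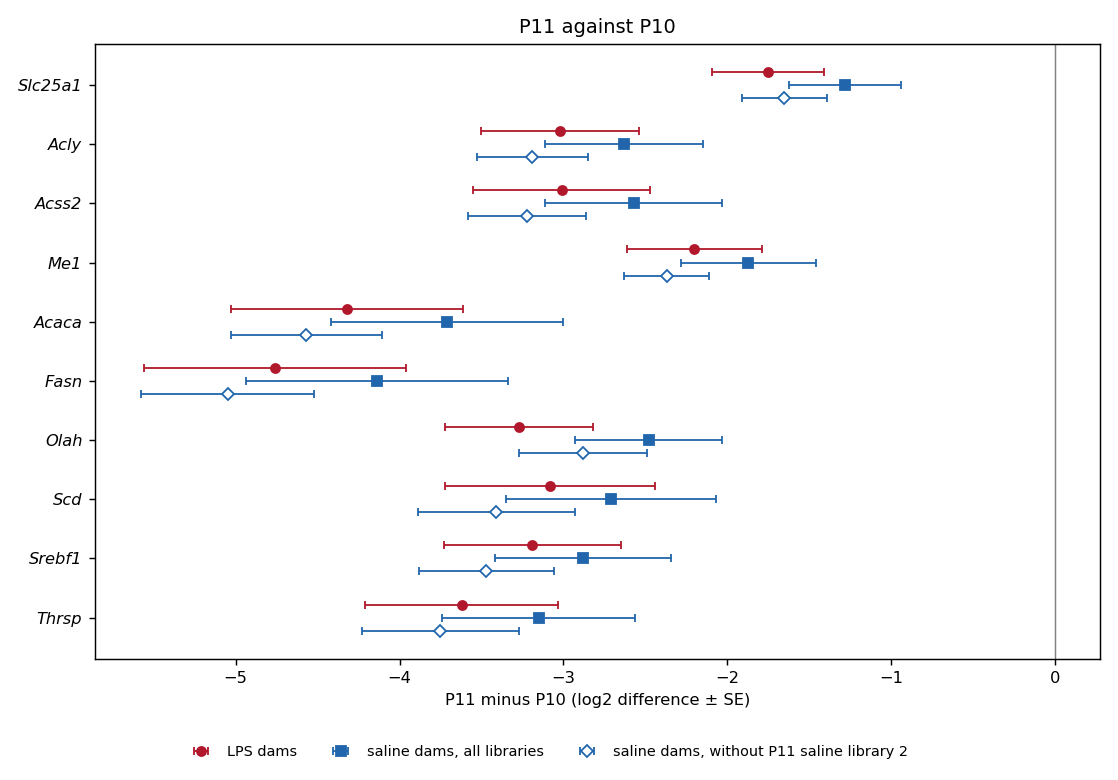
Difference P11 minus P10 (horizontal axis, log2 units, with SE from limma) for each member in LPS dams (circles), saline dams (squares) and saline dams without P11 saline library 2 (diamonds). All points lie left of 0, with Fasn and Acaca farthest and Slc25a1 and Me1 nearest.

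How far the genes fell depends on what they are measured against. Normalised counts, in units of 1e6, summed to 23.9 to 27.6 per P11 LPS library and 60.0 to 99.3 per P10 LPS library, so a count at P11 is a larger part of its library. As log2(CPM + 1), where CPM is a count scaled to its library's own total, the median member difference was -1.55 in LPS dams and -1.60 in saline dams. The median of all genes moved to 1.06 in LPS dams and 0.69 in saline dams on the CPM scale, and 9818 genes were called higher and 289 lower in LPS dams, against 4332 higher and 3081 lower on the deposited scale. In saline dams the split was 8038 higher and 456 lower, against 3588 higher and 2969 lower. On the CPM scale 8 of 10 members were still called lower in each treatment, Fasn at -3.10 ± 0.72 in LPS dams and -3.02 ± 0.72 in saline dams. Slc25a1 and Me1 lost their calls. Slc25a1 was at -0.12 ± 0.33 in LPS dams and -0.16 ± 0.33 in saline dams (limma adjusted p = 0.776 and 0.705), and Me1 at -0.55 ± 0.33 and -0.75 ± 0.33 (limma adjusted p = 0.149 and 0.0606). Without library 2, Me1 was called in saline dams at -1.03 and Slc25a1 was not, at -0.33.

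Together the 10 genes took 0.583% ± 0.247 of normalised counts in P11 LPS and 1.01% ± 1.16 in P11 saline libraries, or 0.505% ± 0.288 without library 2. They took 3.12% ± 0.961 in P10 LPS and 3.92% ± 2.11 in P10 saline libraries (SD, n = 5, or 4 without library 2), and reached 7.34% in P10 saline library 2. Fasn alone gave 39.5 to 54.0% of these counts in P11 LPS and 35.7 to 54.6% in P11 saline libraries other than library 2, where it gave 70.0%. In P10 libraries it gave 67.8 to 73.8% in LPS and 68.2 to 74.6% in saline dams.

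The unequal falls can be read from ratios within a library, which no scaling between libraries changes. Of the 45 pairs of members, 23 changed their ratio between P11 and P10 in LPS dams (exact permutation test, two-sided, Benjamini-Hochberg over the 45 pairs, smallest adjusted p = 0.0198; the smallest p that 5 against 5 libraries can give is 0.00794). In saline dams none of the 45 did at an adjusted p under 0.05 (smallest 0.051, with 20 pairs under an unadjusted 0.05), and 20 did without library 2. Slc25a1 and Me1 each fell less than 7 other members in LPS dams, and less than 8 and 6 in saline dams without library 2. Fasn fell more than 8 other members in LPS dams and more than 6 in saline dams without library 2, and Acaca more than 5 and 3. The log2 ratio of Slc25a1 to Fasn was higher by 2.98 at P11 than at P10 in LPS dams, and that of Me1 to Fasn by 2.55 (exact permutation adjusted p = 0.0198 for both). Slc25a1 and Me1 did not separate from each other, with a change of 0.43 in their log2 ratio (exact permutation adjusted p = 0.281).

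Milk epithelial markers were also called lower at P11, 6 of 8 in LPS dams and 5 of 8 in saline dams. In saline dams without library 2 it was 6 of 8. In LPS dams 52.9% of all genes were called in either direction, 30.9% higher and the rest lower. In saline dams 21.2% of all genes were lower, or 24.8% without library 2. All 8 marker differences in LPS dams lay between -3.47 and -2.23. The uncalled Csn1s1 and Csn2 were at -2.98 ± 2.52 and -2.94 ± 2.43. As CPM, 2 of 8 were lower in LPS dams and 4 of 8 in saline dams, or 5 of 8 without library 2. Of all genes, 2.06% were lower as CPM in LPS dams and 3.25% in saline dams with all libraries. The share as CPM without library 2 is not given here. Against each of the 8 markers within a library, Fasn was lower at P11 in every case, by 1.28 to 2.41 log2 units in LPS dams and by 0.98 to 2.03 in saline dams, or 1.18 to 2.50 without library 2. In LPS dams 6 of these 8 Fasn ratios and 4 of the 8 Acaca ratios passed (exact permutation test, Benjamini-Hochberg over 80 ratios, smallest adjusted p = 0.0488). In saline dams none of 80 passed, with a smallest adjusted p of 0.231, or 0.115 without library 2. The smallest p that 5 against 5 libraries can give is 0.00794, so a ratio passes only if many others reach that p too. The lack of calls in saline dams is therefore not a measured difference from LPS dams. Slc25a1 and Me1 ratios were higher at P11 against all 8 markers in both treatments, by 0.57 to 1.71 and 0.14 to 1.28 in LPS dams, of which 1 Me1 ratio passed. Thrsp was lower against 8 of 8 in LPS dams and 7 of 8 in saline dams, Scd and Srebf1 against 6 of 8 in LPS dams and 7 of 8 in saline dams, and Acly, Acss2 and Olah against 6 of 8 in each, with 1 Acss2 ratio and 1 Olah ratio passing in LPS dams.

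Markers of some other cells moved with the day as well, and their part in the fall of the members was not tested. The counts below stand against 30.9% of all genes higher and 52.9% called in either direction in LPS dams. In saline dams 25.6% of all genes were higher and 21.2% lower with all libraries. Without library 2, 24.8% were lower and the share higher is not given here. Counts of markers that rose without library 2 thus have no matching share. As CPM, 70.0% were higher in LPS dams and 57.3% in saline dams. Of 10 neutrophil markers, 7 rose at P11 in LPS dams and 6 in saline dams, or 7 without library 2. Their summed share was 0.0226 to 0.065% in P11 LPS and 0.000307 to 0.122% in P11 saline libraries (from 0.0315% without library 2), against 0.000101 to 0.000746% in P10 LPS and 6.2e-05 to 0.000386% in P10 saline libraries. The median was 0.0423% in P11 LPS and 0.000287% in P10 LPS libraries. Mpo was at 0 in P11 LPS, Elane in P11 saline, and both in the P10 groups. Of 9 macrophage and monocyte markers tested, 3 rose in LPS dams and 2 in saline dams, counts near the shares of all genes. In saline dams without library 2, 3 rose and 1 was lower. Their summed share was at most 0.0336% in P11 LPS, 0.166% in P11 saline, 0.00187% in P10 LPS and 0.00117% in P10 saline libraries. Marco was at 0 in every group. Of 8 myoepithelial markers, 6 rose in LPS dams and 5 in saline dams, or 7 without library 2, with a share of 0.0466 to 0.0839% in P11 LPS, 0.00467 to 0.0923% in P11 saline (from 0.061% without library 2), 0.00105 to 0.00334% in P10 LPS and 0.00127 to 0.0031% in P10 saline libraries, and Oxtr was at 0 in P10 LPS. Adipocytes are the other lipogenic cells of the gland. None of their 7 tested markers rose, and 4 fell in LPS dams and 3 in saline dams, with or without library 2. Their share was 0.00654 to 0.00828% in P11 LPS, 0.00637 to 0.0107% in P11 saline, 0.00296 to 0.00575% in P10 LPS and 0.00296 to 0.00585% in P10 saline libraries, and Adipoq was at 0 in all groups and Plin1 in both P11 groups. On the CPM scale 2 and 3 of those adipocyte markers were called higher instead. Of 7 lymphocyte markers tested, 2 rose and 1 fell in LPS dams and 1 rose and 1 fell in saline dams, or 1 rose and 2 fell without library 2. Of 2 skin keratinocyte markers tested, 1 rose in each, with Krt1 and Ivl at 0 in every group, and of 5 red blood cell markers 1 rose in each and 2 fell in saline dams. These last 3 lists did not exceed 0.0266% in any library.

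LPS against saline gave no call among the members at either time. At P11, 24 h after the injection, the differences of LPS minus saline ranged from -0.55 (Scd) to -0.03 (Olah) with a median of -0.46, and 0 of 10 passed, where 0.0856% of all genes did. The direction rested on P11 saline library 2. Without it the median was 0.19, 9 of the 10 differences turned positive, and the range was -0.09 (Slc25a1) to 0.40 (Acaca), again with 0 of 10 called, where 0.0642% of all genes were. Fasn was at -0.54 ± 0.80 with a 95% interval of -2.21 to 1.13, and at 0.37 ± 0.53 with an interval of -0.73 to 1.48 without library 2. The intervals for Fasn at P11 thus admit a change of more than 1 log2 unit in either direction with all libraries.

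**Figure D3:**
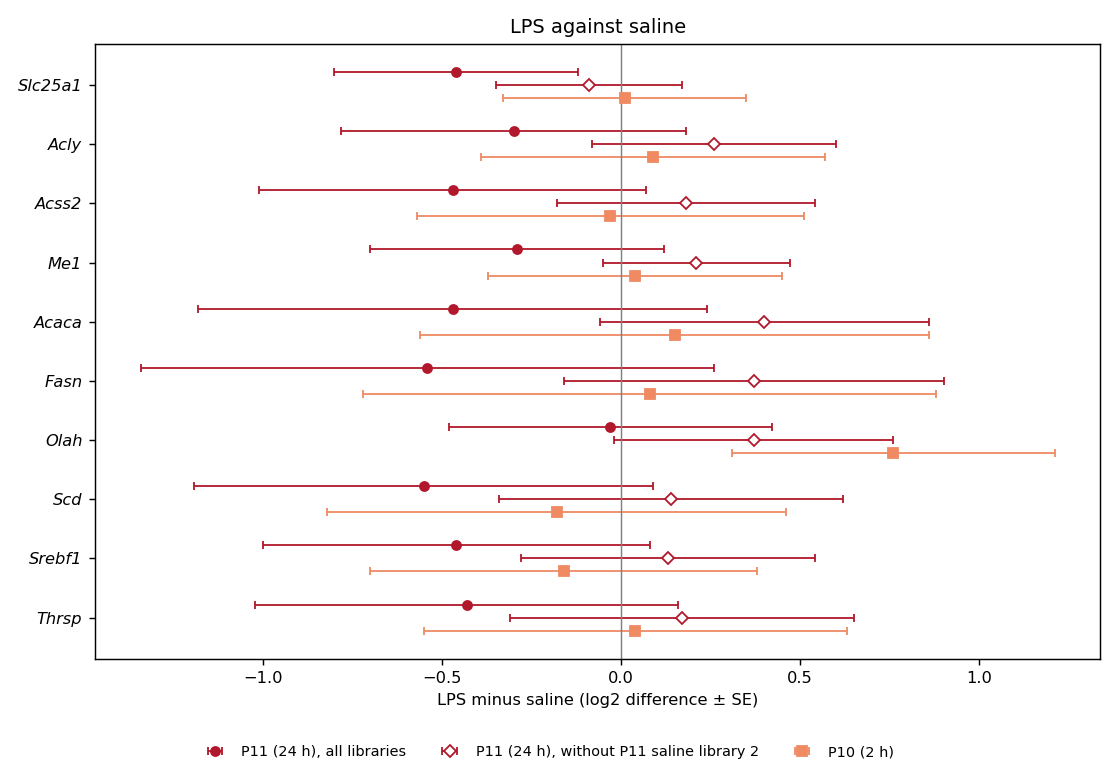
Difference LPS minus saline (horizontal axis, log2 units, with SE from limma) for each member at P11 (circles), at P11 without P11 saline library 2 (diamonds) and at P10 (squares). The P11 circles lie left of 0 and 9 of the 10 diamonds right of it, and the Olah square at P10 lies farthest right.

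At P10, 2 h after the injection, 9 of the 10 differences lay between -0.18 and 0.15 and the median was 0.04. None of the 10 passed, and neither did any of the 14022 genes (0.00%), of which 622 had an unadjusted p under 0.05. The exception in size was Olah, at 16.07 to 16.61 in P10 LPS libraries, against 14.68 to 16.33 in P10 saline libraries. The ranges overlapped through P10 saline library 4 alone, at 16.33. The difference was 0.76 ± 0.45 with a 95% interval of -0.18 to 1.7 (limma adjusted p = 1). Olah was also the only member in the authors' deposited table for this day, which lists genes of unadjusted p under 0.05, with a log2 fold change of 0.67 ± 0.253 (SE), p = 0.00808 and an adjusted p of 0.235. No member was in the authors' deposited table for P11. The difference between the LPS effects at the 2 times was called for 0 of 10 members, where 0.0357% of all genes were called, with a median of -0.46 and a range of -0.79 to -0.30, or a median of 0.19, a range of -0.39 to 0.33 and 0 of 10 called, where 0.0285% of all genes were, without library 2. Of the 45 ratios of members, none passed for LPS against saline at P11 or at P10 (smallest exact permutation adjusted p = 1 and 0.625).

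Within P10 the members differed in how even they were. Among 5 LPS and 5 saline libraries the SD was 0.12 and 0.09 for Me1 and 0.12 and 0.14 for Acss2, but 0.69 and 0.86 for Thrsp, 0.58 and 1.01 for Srebf1 and 0.71 and 0.71 for Scd. Over the 10 P10 libraries, which share 2 treatments and the scaling between libraries, Slc25a1 followed Acly (Pearson r = 0.933, permutation p = 7e-05; Spearman rho = 0.939, permutation p = 0.00017; r = 0.925 without the 2 libraries farthest from the median). The permutation p adjusted over the 45 pairs was 0.00315 for r and 0.00765 for rho. Fasn followed Acly (r = 0.886, permutation p = 0.00038, adjusted 0.00709; rho = 0.855, permutation p = 0.00271, adjusted 0.0406; r = 0.774 without the 2 libraries). It also followed Slc25a1 (r = 0.876, permutation p = 0.00063, adjusted 0.00709; rho = 0.879, permutation p = 0.00155, adjusted 0.0349; r = 0.787 without the 2). In all, 6 of 45 pairs passed by r, the other 3 being Thrsp with Fasn (r = 0.85), Acly (0.827) and Slc25a1 (0.815), which did not pass by rho. The genes that fell least, Slc25a1 and Me1, thus differed at P10: Slc25a1 varied with Fasn, and Me1 hardly varied (r = 0.15 with Fasn).

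**Figure D4:**
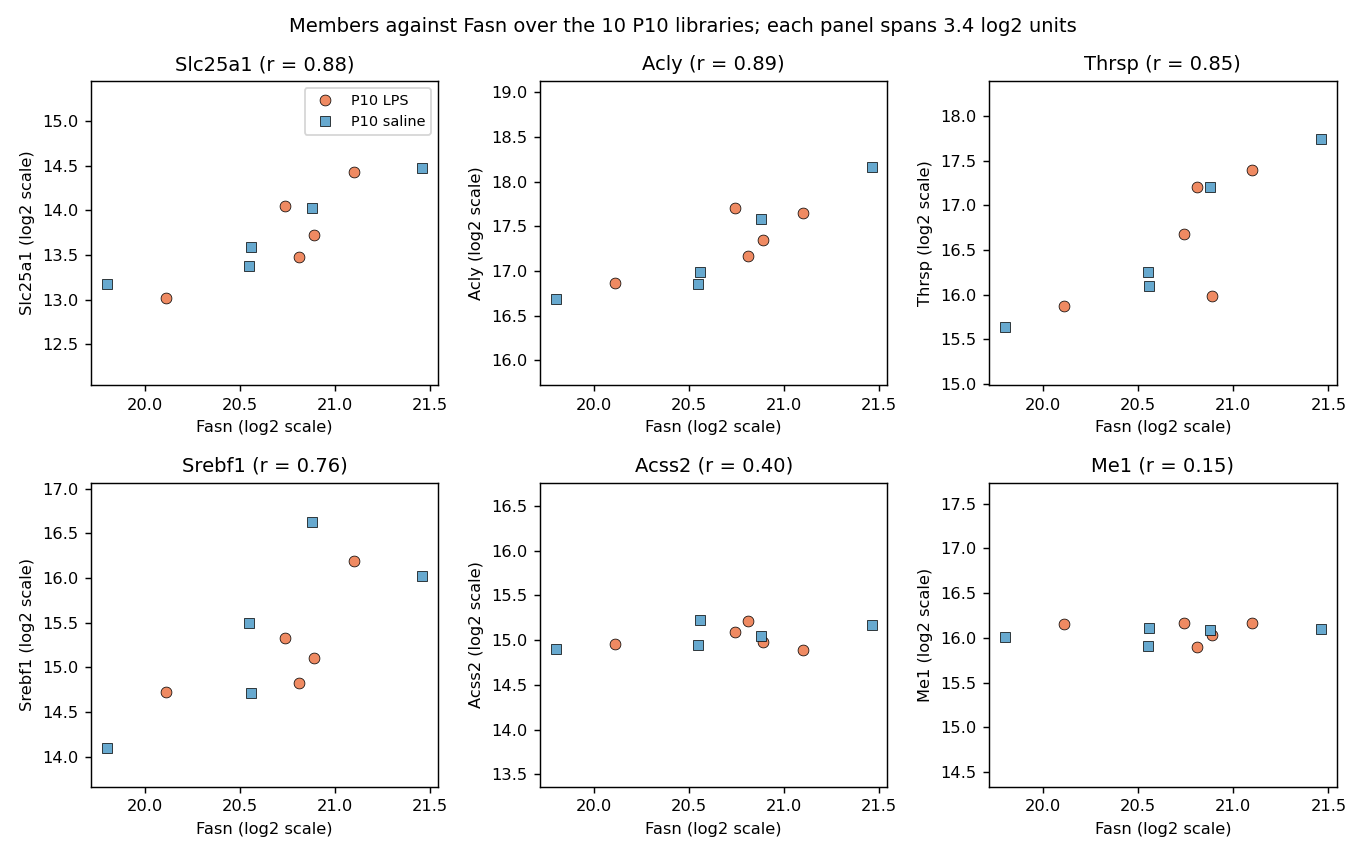
Deposited log2-scale value of 6 members (vertical axes, all of one height) against that of Fasn (horizontal axis) in the 5 P10 LPS libraries (circles) and 5 P10 saline libraries (squares). Slc25a1, Acly, Thrsp and Srebf1 climb with Fasn, while Acss2 and Me1 stay level. The Srebf1 pair did not pass (r = 0.759, adjusted permutation p = 0.055).

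Over all 20 libraries genes outside the members whose values were most like those of Fasn included Pc (r = 0.994), Epb41l4b (0.992), Ehhadh (0.992) and Aldh6a1 (0.991), a description without a test since the days set most of it. Pc encodes pyruvate carboxylase, which makes oxaloacetate in the mitochondrion. Using deviations from the group means, they were Pc (0.984), Aldh4a1 (0.978), Aldh6a1 (0.971), Ehhadh (0.969) and Gng7 (0.967). Without P11 saline library 2 they were Pc (0.958), Aldh4a1 (0.939), Gng7 (0.930), Aldh6a1 (0.926) and Cs (0.923).

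Transcripts of the listed genes for making citrate and acetyl-CoA, most of them mitochondrial, were all called lower at P11 on the deposited scale. It was 12 of 12 in LPS dams, with a median of -1.87, and 12 of 12 in saline dams, with a median of -1.60, or 12 of 12 and -2.0 without library 2. The counts of these and the next lists stand against 3081 of 14022 genes lower and 30.9% higher in LPS dams, and 21.2% lower and 25.6% higher in saline dams. These saline shares include library 2. Without it 24.8% were lower, while the share higher and the shares as CPM are not given here. On the CPM scale 2.06% of all genes were lower and 70.0% higher in LPS dams, and 3.25% lower and 57.3% higher in saline dams, so a list with most genes higher as CPM is near the whole table. Pdha1, a subunit of pyruvate dehydrogenase, had a difference of -2.25 ± 0.29 in LPS dams (limma adjusted p = 1.4e-05), and Cs, citrate synthase, -1.63 ± 0.25 in saline dams (limma adjusted p = 1.3e-04), or -1.98 ± 0.12 without library 2. As CPM, 3 of 12 were lower and 2 higher in LPS dams, and 5 lower and 1 higher in saline dams, or 7 lower and 1 higher without library 2. Of 12 genes of the NADPH list, 6 were lower and 2 higher in LPS dams and 6 lower and 1 higher in saline dams, or 6 and 2 without library 2, against 0 lower and 8 higher, and 1 lower and 5 higher, as CPM. Nnt, the mitochondrial transhydrogenase, had a difference of -1.51 ± 0.24 in LPS dams and -1.54 ± 0.24 in saline dams, or -1.83 ± 0.15 without library 2.

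Genes listed around the activity of Acaca and Fasn were called in both directions. Of 10 partners of acetyl-CoA carboxylase and subunits of AMPK, the kinase that inhibits it, 3 were lower and 4 higher in each treatment, or 4 and 4 in saline dams without library 2, against 2 lower and 7 higher in LPS dams and 3 lower and 6 higher in saline dams as CPM. The genes of smallest p, 1 for each treatment, were both among the lower ones. They were Acacb, the mitochondrial carboxylase, at -2.43 ± 0.33 in LPS dams, and Mlycd, malonyl-CoA decarboxylase, at -1.71 ± 0.28 in saline dams. Mlycd was at -2.11 ± 0.12 in saline dams without library 2. Aasdhppt, which attaches the cofactor of fatty acid synthase, had a difference of -0.63 ± 0.18 in LPS dams and -0.62 ± 0.18 in saline dams, or -0.78 ± 0.16 without library 2, and was called higher as CPM, at 0.94 in LPS dams and 0.45 in saline dams. Of 14 genes of lipogenic transcription control other than Srebf1, 6 were lower and 2 higher in LPS dams and 5 lower and 1 higher in saline dams, or 5 lower and 4 higher without library 2, against 0 lower and 9 higher, and 1 lower and 7 higher, as CPM. Mbtps1, the protease that begins the release of SREBP, had a difference of -0.76 ± 0.12 in LPS dams and -0.73 ± 0.12 in saline dams, or -0.79 ± 0.12 without library 2.

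The other fatty acid lists differed in their counts, and on the deposited scale only the elongation list was near the shares of the whole table. Of 7 genes of saturated chain elongation and other stearoyl desaturases, 2 were lower and 3 higher in LPS dams and 2 lower and 2 higher in saline dams, with or without library 2, among them Tecr at -1.91 ± 0.20 in LPS dams and Hsd17b12 at -1.33 ± 0.20 in saline dams (-1.51 ± 0.17 without library 2), both enzymes of the elongation cycle. As CPM it was 1 lower and 4 higher in LPS dams and 1 lower and 3 higher in saline dams. Mitochondrial fatty acid synthesis, a separate pathway, had 4 of 6 genes lower in each treatment, or 5 in saline dams without library 2, including Ndufab1 at -0.98 ± 0.23 in LPS dams and Mcat at -0.67 ± 0.14 in saline dams (-0.80 ± 0.12 without library 2), against 5 higher in LPS dams and 2 higher in saline dams as CPM. In fatty acid oxidation 6 of 10 were lower and 1 higher in each treatment, with or without library 2, and as CPM 9 higher and 0 lower in LPS dams and 7 higher and 1 lower in saline dams. The higher gene was Cpt1a, the carnitine palmitoyltransferase that admits fatty acids to the mitochondrion, with a difference of 3.32 ± 0.49 in LPS dams (limma adjusted p = 3.1e-05). Ppara, a transcription factor for oxidation genes, had a difference of -1.32 ± 0.23 in saline dams, or -1.53 ± 0.20 without library 2. No gene of these pathway lists was called for LPS against saline at either time.

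**Figure D5:**
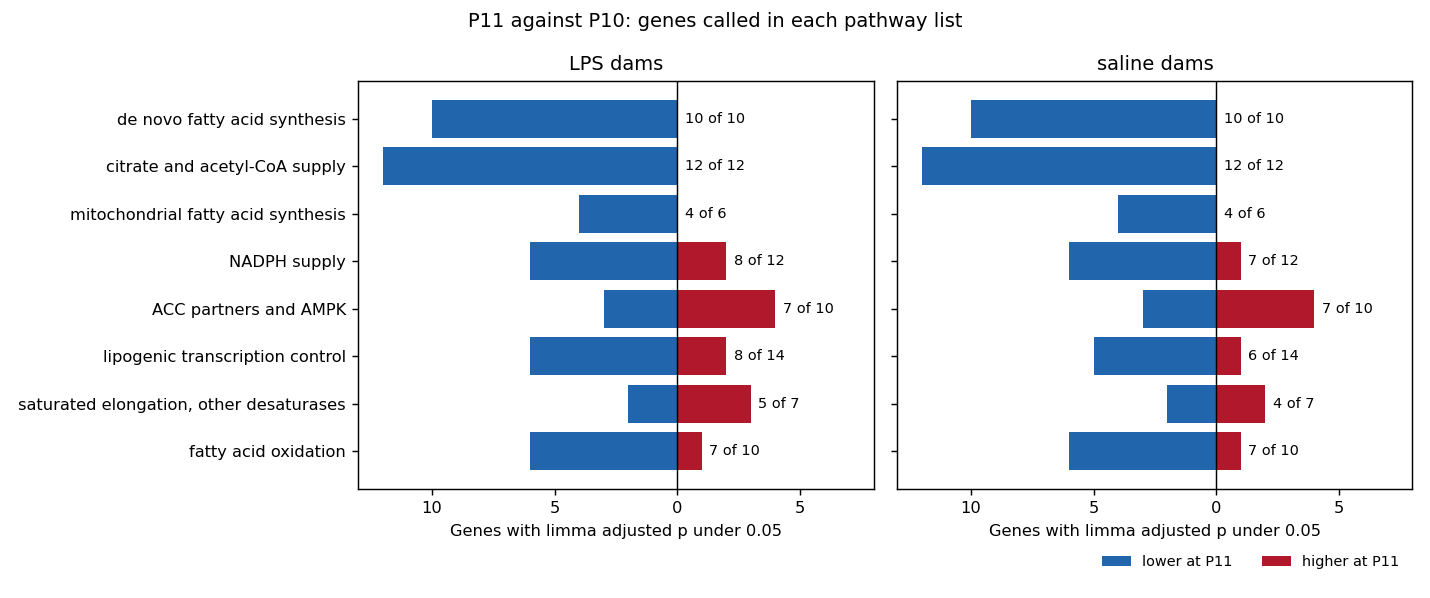
Number of genes called lower (left bars) and higher (right bars) at P11 against P10 by limma at an adjusted p under 0.05 on the deposited scale, in LPS dams (left panel) and saline dams (right panel), with the number called of those tested beside each bar. The members and the citrate and acetyl-CoA supply list have left bars only, as has mitochondrial fatty acid synthesis.

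Since the members fell together, the bases before their start sites were read for motifs of factors known to act on lipogenic genes. RefSeq promoters (assembly GRCr8, not the rn6 of the deposited data) were at hand for 8 of 10 members, Fasn and Acaca being the others. The windows covered 250 bases before to 50 bases after a start site, both strands were searched, and a gene with 2 start sites (Srebf1) counts once. The NF-Y box CCAAT was in 6 of 8 members (Acly, Acss2, Olah, Slc25a1, Srebf1 and Thrsp), against 37.5% of 33469 promoters, and the GC box GGGCGG in 6 of 8 (Acly, Acss2, Me1, Slc25a1, Srebf1 and Thrsp), against 33.1%. The E-box CACGTG (6.42% of promoters), the sterol regulatory element TCACNCCAC (1.12%) and the STAT motif TTCNNNGAA (8.87%) were in none of the windows of these 8 genes. A match describes the letters and is neither a binding site nor a cause. The 170 bases before the start site are shown for both regulators and for the 2 genes that fell least, with NF-Y and GC boxes in capitals on either strand (ATTGG and CCGCCC are their reverse complements). They lie at chr1:161138965-161139134, minus strand, for Thrsp, at chr10:45529165-45529334, minus strand, for Srebf1, at chr11:96559884-96560053, plus strand, for Slc25a1 and at chr8:96540245-96540414, minus strand, for Me1.
Thrsp: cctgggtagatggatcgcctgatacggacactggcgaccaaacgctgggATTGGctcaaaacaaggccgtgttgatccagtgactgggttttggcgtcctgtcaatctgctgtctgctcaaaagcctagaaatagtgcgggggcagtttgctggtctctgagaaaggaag
Srebf1: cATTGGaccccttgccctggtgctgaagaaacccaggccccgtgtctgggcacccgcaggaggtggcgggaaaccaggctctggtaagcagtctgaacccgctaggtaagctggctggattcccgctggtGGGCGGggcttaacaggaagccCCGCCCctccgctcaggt
Slc25a1: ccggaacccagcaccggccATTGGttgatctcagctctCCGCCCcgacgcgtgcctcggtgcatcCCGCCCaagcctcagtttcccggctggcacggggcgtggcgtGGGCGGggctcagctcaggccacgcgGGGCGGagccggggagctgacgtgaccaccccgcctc
Me1: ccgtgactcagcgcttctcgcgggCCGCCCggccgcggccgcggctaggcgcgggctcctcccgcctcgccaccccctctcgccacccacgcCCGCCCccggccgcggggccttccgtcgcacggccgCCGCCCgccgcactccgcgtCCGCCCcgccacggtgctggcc
Slc25a1 and Me1 carried 4 GC boxes each in this stretch, Srebf1 2 and Thrsp none. Thrsp, Srebf1 and Slc25a1 carried 1 NF-Y box each and Me1 none. The Srebf1 stretch belongs to its outermost annotated start site. The window of its other start site, not printed, held NF-Y boxes at -131 and -108 and GC boxes at -143, -84 and 15, counted from that site.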

How the data were processed

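Milk-fat RNA was sequenced in stranded mRNA libraries with 100-base single-end reads, per the labels. The authors deposited log2-scale expression values (called rlog; their single lowest value of 5.46 has the form of a variance-stabilizing transformation), made with DESeq2 and rn6 per the submitters' processing notes; these notes name no aligner, counter or annotation. Their comparison tables, per the file headers, hold a base mean (a signal: the mean normalised count), log2 fold changes, a Wald score and p-values. The transformation was inverted to normalised counts; reads per library were estimated from the count value of 1 read in rare genes. A 4-group model was fitted with limma 3.58.1 (R 4.3.3, trended moderation) to 14022 genes, with genes never above the lowest value left out, with two-sided p-values adjusted by Benjamini-Hochberg, threshold 0.05. It was tested on simulated data. SE is the model's, SD is between libraries. Within-library ratios used exact permutation tests over every split of the libraries, checked against scipy 1.17.1, and correlations 100000 permutations. All members are named; of each pathway list, the gene of smallest p per comparison of days, plus Fasn's 5 closest genes, of which 1 is not reported here. Members and lists were chosen with earlier results of these data known. The library numbers do not pair samples.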

Additional observations from a re-analysis of the deposited data

Results flagged for a closer look

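Among 40 groups of 5 libraries (10 members in 4 groups), 2 held a library whose gap to its nearest neighbour, as a share of the group's range, passed Dixon's 95% critical value of 0.71; chance gives about 1 in 20. Slc25a1 in P11 saline had a share of 0.714 for library 2, at 13.95 against 11.71 to 12.35 in the others. Olah in P10 LPS had a share of 0.725 for library 2, at 16.61 against 16.07 to 16.22 in the others.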

How the results depend on the processing

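No paired analysis was possible because the value columns carry library numbers and no dam numbers. All 10 members were called lower at P11 in both treatments under each alternative except CPM scaling, where Slc25a1 and Me1 were not in either treatment with all libraries, and none was called for LPS against saline under any. As CPM, the median differences were -1.55 (LPS dams), -1.60 (saline dams) and, for LPS minus saline at P10, -0.28; without P11 saline library 2 as well, a choice made after seeing the data, that of the difference of LPS effects was 0.51. The sign of small LPS differences changed with the setting. At P10, quantile normalisation gave Slc25a1 -0.025, Acly -0.16, Me1 -0.13, Acaca -0.005, Fasn -0.30 and Thrsp -0.051; CPM gave Slc25a1 -0.31, Acly -0.23, Me1 -0.28, Acaca -0.18, Fasn -0.25 and Thrsp -0.28; library weights gave Slc25a1 -0.059 and Thrsp -0.081. At P11, Olah was 0.10 under quantile normalisation and 0.18 as CPM; library weights gave Acly 0.24, Acss2 0.16, Me1 0.18, Acaca 0.38, Fasn 0.31, Olah 0.38, Scd 0.12, Srebf1 0.032 and Thrsp 0.052; CPM without P11 saline library 2 gave Acly 0.25, Acss2 0.17, Me1 0.20, Acaca 0.39, Fasn 0.36, Olah 0.36, Scd 0.15, Srebf1 0.12 and Thrsp 0.16. Leaving out 1 library at a time, the P10 ranges were -0.16 to 0.20 for Slc25a1, -0.049 to 0.32 for Acly, -0.079 to 0.0079 for Acss2, -0.025 to 0.23 for Acaca, -0.14 to 0.28 for Fasn, -0.34 to 0.084 for Scd, -0.48 to 0.15 for Srebf1 and -0.19 to 0.33 for Thrsp. The P11 ranges were -0.64 to 0.26 for Acly, -0.97 to 0.18 for Acss2, -0.60 to 0.21 for Me1, -0.99 to 0.40 for Acaca, -1.10 to 0.37 for Fasn, -0.32 to 0.37 for Olah, -0.96 to 0.14 for Scd, -0.75 to 0.13 for Srebf1 and -0.79 to 0.17 for Thrsp. The cause was not tested.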
